A study of Mus musculus with 7 samples.

Results

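A set of 9 genes of 2 axon guidance systems were followed through the formation of olfactory sensory neurons: the Roundabout receptors Robo1, Robo2 and Robo3, the Slit ligands Slit1 and Slit2, and the netrin receptors Dcc, Unc5a, Unc5b and Unc5c. They were chosen by name from the deposited expression tables, where 9 of 9 were found among 54532 genes. Messenger RNA had been sequenced from cells sorted by fluorescence from the olfactory epithelium of young mice. The mature population, olfactory sensory neurons, was taken from the OMP-GFP line at postnatal days 2, 7 and 16 (P2, P7 and P16, 3 libraries). The progenitor population, intermediate progenitors, was taken from the Neurog1-GFP line at P3, P7, P9 and P16 (4 libraries). The study's design text says that the purified cells were pooled, and the labels name no other allele or treatment. Each age had 1 library per population, so the ages stand in for replicates, and population and reporter line cannot be told apart.

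Slit proteins are secreted and mostly repel growing axons through Robo receptors on the growth cone. Netrins attract axons through Dcc, and repel them where a member of the Unc5 family is present. In the mouse olfactory system Robo2 is known for its part in sorting sensory axons between the dorsal and ventral olfactory bulb, and Robo3 is known for commissural axons, where it responds to Nell2 and not to Slits.

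Counts on genes ranged from 24203965 to 25930727 per library. Neurog1, the gene that the progenitor reporter is named for, stood at 328 to 825 CPM (read counts scaled to a common library size) in progenitors and at 1.11 to 2.08 CPM in mature neurons. Omp, the gene that the mature reporter is named for, did not separate the pools, with 1494 to 2377 CPM in mature neurons and 1663 to 3020 CPM in progenitors. The other listed mature neuron markers did, 5 of 6 being called higher in mature neurons. The 6 summed to 11350 to 16240 CPM in mature neurons and 4502 to 6928 CPM in progenitors. Genes of immature neurons were higher in the progenitor pools (6 of 6 called), with summed CPM of 6 markers between 6859 and 8094 in progenitors and between 1734 and 2184 in mature neurons. Among other cell types, sustentacular markers summed to 3523 to 3968 CPM in mature neurons and 1841 to 2744 CPM in progenitors (4 of 8 called higher in mature neurons), and leukocyte markers to 23.87 to 111.3 and 7.709 to 24.5 CPM (7 of 8 higher). Ensheathing glia markers summed to 51.69 to 82.81 CPM in mature neurons and 97.04 to 105.8 CPM in progenitors, although 5 of 8 were called higher in mature neurons, Fabp7 by 4.52-fold and S100b by 3.36-fold among them, and 1, Mbp, lower. Their part in the differences between the populations was not tested.

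Of the 9 genes, 6 differed between the populations. Robo3, Dcc, Robo2 and Slit2 were lower in mature neurons, Unc5b and Slit1 were higher, Robo1 was not called, and Unc5a and Unc5c were too low to be tested. A gene was called by edgeR's quasi-likelihood test at an adjusted p under 0.05 over 17975 tested genes. The 2 genes called higher and the 4 called lower stand among 7 tested, beside backgrounds of 28.8% and 30.0% of all tested genes, and 58.8% of all genes were called in either direction, so a call by itself sets none of the 9 apart. On CPM the populations did not overlap for the same 6 genes, 2 above and 4 below, beside 61.4% of all tested genes (29.2% above and 32.2% below). The median log2 fold of the 7 was -0.53, and that of all tested genes was 0.01. In a sorted bulk sample, fewer cells that express a gene and less RNA per cell cannot be told apart.

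**Figure D1:**
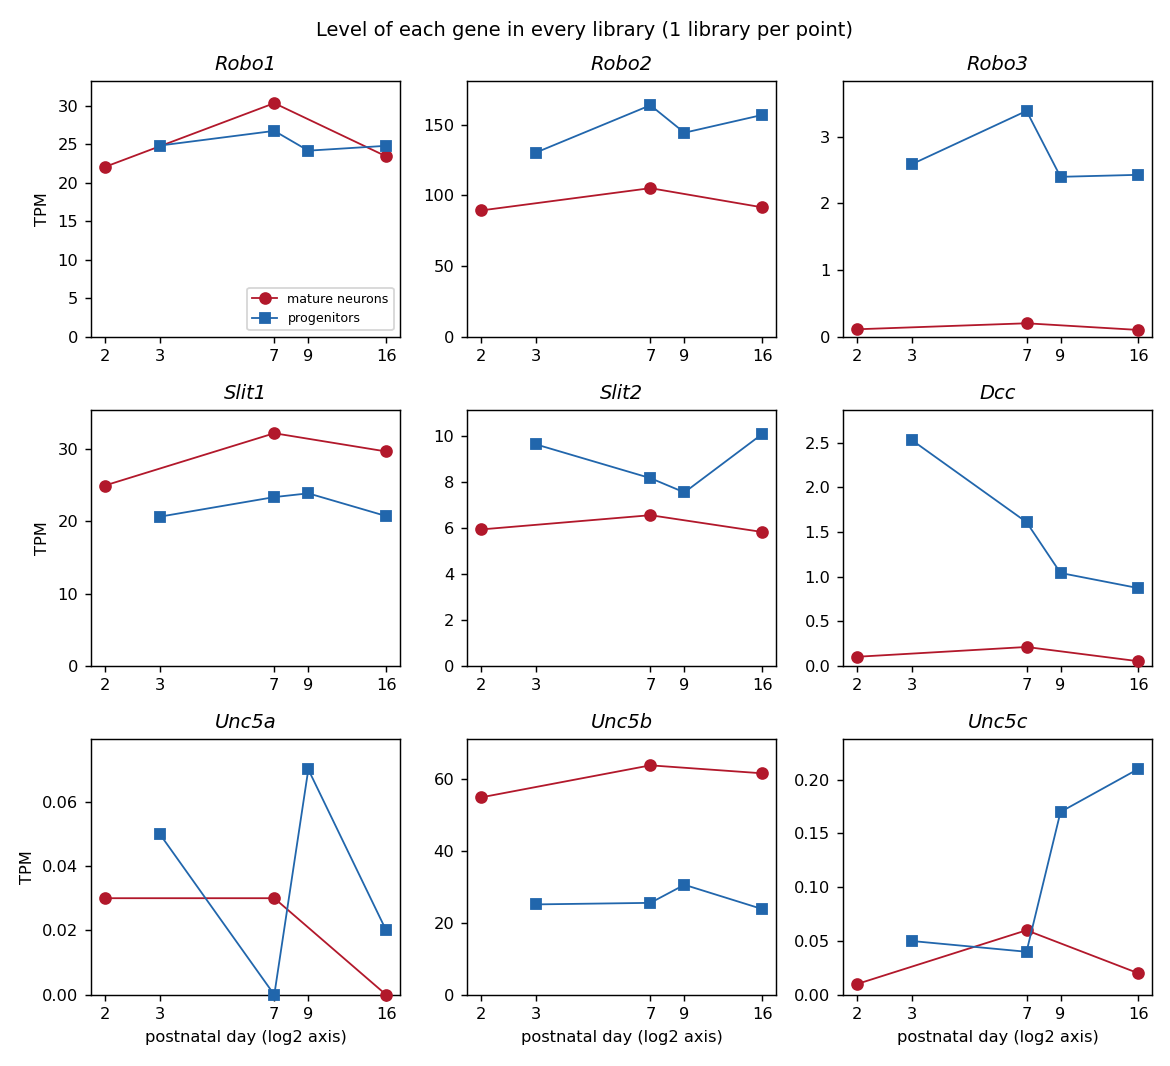
Level of each of the 9 genes in TPM (a length-scaled expression unit, vertical axes from 0, each panel on its own scale) against postnatal day on a log2 axis, with 1 point per library, circles for mature neurons and squares for progenitors. The populations lie apart in the panels of Robo2, Robo3, Slit1, Slit2, Dcc and Unc5b and overlap in those of Robo1, Unc5a and Unc5c.

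Robo2 was the most abundant of the 9 in both populations. Its level was 89.23, 105.03 and 91.45 TPM in the mature pools at P2, P7 and P16, and 130.17, 163.70, 144.25 and 156.83 TPM in progenitors at P3, P7, P9 and P16. Every progenitor library lay above every mature one. The difference was a log2 fold of -0.53 (SE 0.09, adjusted p = 0.00140 by edgeR), or 1.45-fold lower in mature neurons. By limma on log2(TPM + 1) the difference was -0.64, where the median of all genes moved from 0.01 to -0.09. The mean was 240 ± 24.7 CPM in mature neurons (n = 3, SD) against 347 ± 25.9 CPM in progenitors (n = 4, SD).

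Robo1, the closest relative of Robo2 among the 9 and its neighbour on chromosome 16, had nearly the same mean in both populations. It stood at 22.03, 30.32 and 23.41 TPM in the mature pools at P2, P7 and P16, and at 24.81, 26.72, 24.15 and 24.78 TPM in progenitors at P3, P7, P9 and P16. The progenitor values fell inside the range of the mature ones. Its log2 fold was 0.10 (SE 0.10, adjusted p = 0.385 by edgeR), with a 95% interval from -0.12 to 0.32. The sign is not settled, since the fold was -0.02 without the P7 mature neuron library (edgeR adjusted p = 0.797, ranging from 0.0950 to 0.977 over its alternatives) and -0.0046 on log2(TPM + 1).

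The 2 genes lie with their ends toward each other, Robo1 on the plus strand at chr16:72308306-73046095 and Robo2 on the minus strand at chr16:73891839-74411825 (GRCm38, GENCODE M21), with 846 kb between them. Both span long stretches, 737.8 and 520.0 kb. The ratio of Robo2 to Robo1 in TPM was 4.050, 3.464 and 3.906 in the mature pools at P2, P7 and P16. In progenitors it was 5.247, 6.126, 5.973 and 6.329 at P3, P7, P9 and P16. The ratios of the populations did not overlap.

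**Figure D2:**
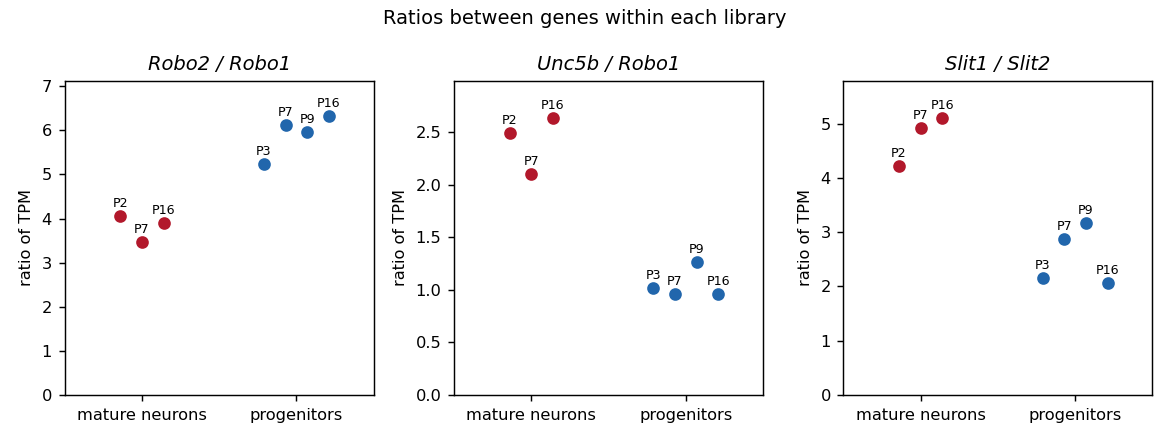
Ratio of 2 genes' TPM within each library (vertical axes from 0), for Robo2 over Robo1, Unc5b over Robo1 and Slit1 over Slit2, with 1 point per library labelled by age. The first ratio is lower and the other two are higher in each mature neuron library than in any progenitor library.

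Robo3, the divergent Roundabout receptor, had the largest difference of the 9. It had 174, 193, 174 and 168 counts in progenitors at P3, P7, P9 and P16, and 5, 9 and 5 counts in the mature pools at P2, P7 and P16. In CPM this was 6.67 ± 0.552 (n = 4, SD) and 0.269 ± 0.0984 (n = 3, SD), a log2 fold of -4.61 (SE 0.26, adjusted p = 8.42e-06 by edgeR), or 24.4-fold lower in mature neurons. The mature values rest on a few reads, and the fold is smaller where a pseudocount weighs on it, at -3.58 on log2(TPM + 0.1) and -1.70 on log2(TPM + 1). Robo3 was a small part of the family throughout, between 1.320% and 1.749% of the summed TPM of the 3 Robo genes in progenitors and between 0.08699% and 0.1475% in mature neurons. Its gene is compact beside those of Robo1 and Robo2, 17.6 kb at chr9:37415669-37433246 on the minus strand.

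The promoter windows of Robo3, of Robo2 and of Unc5b are shown because these genes had the largest fall, the highest level and the largest rise. Windows were taken from RefSeq's promoters (GRCm38.p6) for 7 of the 9 genes, all but Slit1 and Dcc. That none was taken for Slit1 and Dcc does not show that RefSeq lists no promoter for them. The 250 bases before the annotated start are printed 5′ to 3′ on the gene's strand. Capitals mark matches on either strand to 3 motifs bound by factor families of the olfactory lineage: CANNTG (the E-box of basic helix-loop-helix proteins such as Neurog1 and Neurod1), TCCC and GGGA with any 2 bases between them (Ebf proteins) and TAATTA (LIM homeodomain proteins such as Lhx2). No printed match overlaps another.
Robo3 (chr9:37433176-37433425, minus strand): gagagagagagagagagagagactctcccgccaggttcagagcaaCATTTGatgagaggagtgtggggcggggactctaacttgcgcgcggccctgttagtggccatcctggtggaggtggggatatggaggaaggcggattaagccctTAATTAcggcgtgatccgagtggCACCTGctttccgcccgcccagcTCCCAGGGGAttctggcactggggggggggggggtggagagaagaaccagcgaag
Robo2 (chr16:74411826-74412075, minus strand): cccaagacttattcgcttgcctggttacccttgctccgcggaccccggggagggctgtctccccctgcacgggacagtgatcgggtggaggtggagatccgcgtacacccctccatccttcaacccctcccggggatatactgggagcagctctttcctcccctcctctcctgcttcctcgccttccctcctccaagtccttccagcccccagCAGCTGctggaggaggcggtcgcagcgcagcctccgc
Unc5b (chr10:60831582-60831831, minus strand): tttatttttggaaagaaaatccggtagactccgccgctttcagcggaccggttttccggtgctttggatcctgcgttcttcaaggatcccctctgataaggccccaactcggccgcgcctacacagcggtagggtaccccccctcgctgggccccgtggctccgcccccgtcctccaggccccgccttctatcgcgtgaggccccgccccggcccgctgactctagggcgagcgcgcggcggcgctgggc

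The Robo3 window held 2 E-boxes (CATTTG and CACCTG), 1 Ebf match (TCCCAGGGGA) and 1 TAATTA. By GENCODE M21 the Robo3 gene reaches into this window, to chr9:37433246, and the Ebf match lies within the gene. Among 32851 windows of the same length, 66.2% held an E-box, 0.779% an Ebf match and 4.84% a TAATTA. The Robo2 window held 1 E-box (CAGCTG) and no letters matching the others, and the Unc5b window held none of the 3. RefSeq lists other starts for Robo2, whose windows (chr16:75092771-75093020 and chr16:75447294-75447543) are not shown. They lie upstream of the GENCODE M21 span of Robo2, and from those starts the gene would be longer than the span given above. The Unc5b window is rich in CpG, with 27 against a median of 6 over all windows. This is not particular to Unc5b, since the windows of Unc5a, Slit2 and Unc5c, not printed, held 25, 25 and 23. The windows of the Robo genes held 4 to 14. These matches describe the letters only, and binding was not measured.

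Slit1 and Slit2, the ligands, were both transcribed in the sorted cells and differed in opposite directions. Slit1 stood at 24.97, 32.22 and 29.69 TPM in the mature pools at P2, P7 and P16, and at 20.65, 23.37, 23.89 and 20.74 TPM in progenitors at P3, P7, P9 and P16. The groups did not overlap, although the P2 mature neurons and the P9 progenitors lay close. The log2 fold was 0.62 (SE 0.10, adjusted p = 0.000886 by edgeR), or 1.54-fold higher in mature neurons, and it was 0.37 on log2(TPM + 1) (limma adjusted p = 0.0182, with alternatives down to 6.40e-07).

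Slit2 was the weaker ligand in each library. Its level was 5.92, 6.54 and 5.81 TPM in the mature pools at P2, P7 and P16, and 9.62, 8.15, 7.53 and 10.07 TPM in progenitors at P3, P7, P9 and P16. Every mature library was below every progenitor one. The log2 fold was -0.54 (SE 0.11, adjusted p = 0.00340 by edgeR), or 1.45-fold lower in mature neurons. The ratio of Slit1 to Slit2 in TPM was 4.218 to 5.110 in mature neurons and 2.060 to 3.173 in progenitors, while their sum was 30.89 to 38.76 TPM in mature neurons and 30.27 to 31.52 TPM in progenitors. Slit1 lies on the minus strand at chr19:41600257-41743665 and Slit2 on the plus strand at chr5:47983138-48307733.

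Unc5b, a netrin receptor with a cytoplasmic death domain, was the gene that rose most. It stood at 54.94, 63.87 and 61.65 TPM in the mature pools at P2, P7 and P16. In progenitors it stood at 25.16, 25.59, 30.62 and 23.86 TPM at P3, P7, P9 and P16. The lowest mature library was well above the highest progenitor library. The log2 fold was 1.31 (SE 0.09, adjusted p = 1.96e-05 by edgeR), or 2.49-fold, with 93.5 ± 9.99 CPM in progenitors (n = 4, SD) and 232 ± 19.2 CPM in the mature pools (n = 3, SD). Against Robo1, which was not called, the ratio in TPM was 2.107 to 2.633 in mature neurons and 0.9577 to 1.268 in progenitors. Unc5b lies on the minus strand at chr10:60762593-60831581.

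Unc5b is also known from blood vessels, so endothelial markers were read beside it. Their summed CPM over 6 genes was 7.57 to 10.1 in mature neurons and 9.27 to 10.1 in progenitors. Of the 6, 3 were tested. Kdr, the receptor for vascular endothelial growth factor, was called higher in mature neurons with a log2 fold of 1.28 (SE 0.45, adjusted p = 0.0387 by edgeR), close to that of Unc5b, at 0.422 to 1.20 CPM there and 0.222 to 0.488 CPM in progenitors. Tek, an angiopoietin receptor, was called lower at -1.12 (SE 0.36), and Pecam1, an endothelial adhesion molecule, was not called (-0.32). None was at 0 in every library. Cdh5, which defines endothelium, was at 0.128 to 0.513 CPM in mature neurons and was not tested, so no difference between the populations is given for it. The part of endothelial cells in the values of Unc5b was not tested.

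The other Unc5 genes were near the limit of detection. Unc5a had 2, 2 and 0 counts in the mature pools at P2, P7 and P16 and 3, 0, 4 and 1 counts in progenitors at P3, P7, P9 and P16. Unc5c had 2, 3 and 3 counts in mature neurons and 5, 6, 6 and 2 in progenitors at the same ages. A count of 0 allows up to 3 counts, which is 0.128 CPM in the P16 mature neurons and 0.117 CPM in the P7 progenitors, for counting error only. Neither gene passed the filter on low counts, and no fold is given. Unc5b made up at least 99.045% of the summed TPM of the 3 Unc5 genes in every library. Unc5a shares exon sequence with Hk3 and Unc5c with Gm15688, each on the opposite strand, and the strand setting of the counting is not given in the sources used here.

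Dcc, the netrin receptor that mediates attraction, was lower in mature neurons, where few reads fell on it. It had 8, 14 and 4 counts in the mature pools at P2, P7 and P16, and 219, 125, 91 and 73 counts in progenitors at P3, P7, P9 and P16. The lowest progenitor library lay at 2.74 CPM and the highest mature library at 0.596 CPM, so the groups did not overlap. The log2 fold was -3.68 (SE 0.54, adjusted p = 0.000557 by edgeR), or 12.8-fold lower in mature neurons, with a wide 95% interval from -4.91 to -2.44 on the log2 scale. On log2(TPM + 0.1) the difference was -2.83, and on log2(TPM + 1) it was -1.12. By its GENCODE M21 record Dcc is the longest of the 9 genes, 1097.4 kb on chromosome 18.

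**Figure D3:**
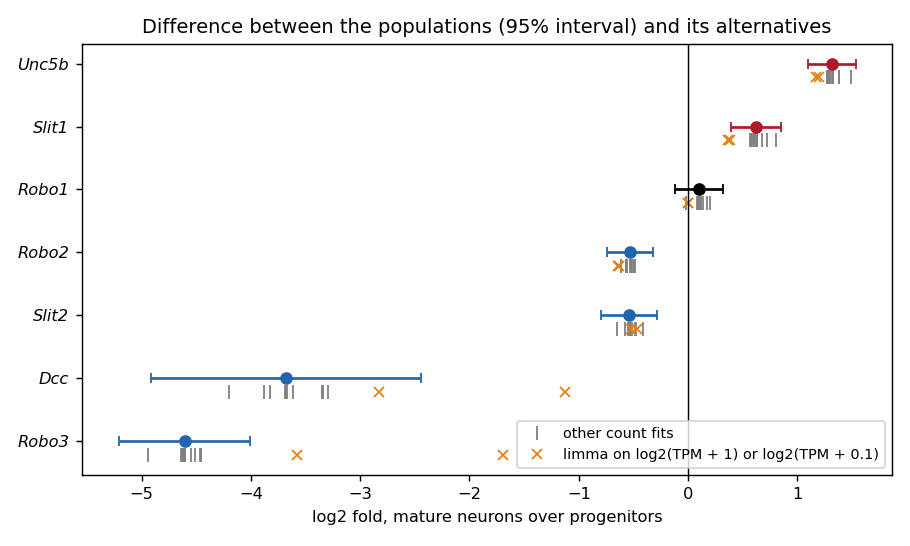
Log2 fold of the 7 tested genes, mature neurons over progenitors, as points with 95% intervals from edgeR, with the same quantity under each alternative below it (grey ticks for count fits, crosses for limma on TPM). The 6 called genes stay on their side of 0 under each of the 13 alternatives, and the crosses of Dcc and Robo3 lie closer to 0 than the count fits do.

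With 1 library per age and population, age was tested as a slope. No gene of the 17975 tested was called for a log2 change per doubling of age shared by both populations (0% called by edgeR, 3746 genes at an unadjusted p under 0.05, and 1500 called by DESeq2). Among the 7 tested genes 0 were called, and 1 was at an unadjusted p under 0.05. This was Dcc, with a slope of -0.51 (SE 0.17, adjusted p = 0.152 by edgeR). Dcc was called when the P7 mature neuron library was left out (-0.59, edgeR adjusted p = 0.0407, the lowest among alternatives of this shared slope). The highest was an edgeR adjusted p of 0.494, without the P3 progenitor library (-0.32). The slopes of the other 6 lay between -0.02 and 0.06. No gene of the 17975 was called for a difference of slopes between the populations (0% called by edgeR, 1075 at an unadjusted p under 0.05, and 6 called by DESeq2), and for Dcc the difference of slopes was 0.51 (SE 0.35, adjusted p = 0.835 by edgeR).

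In progenitors Dcc had a lower value at each later age, at 8.12, 4.86, 3.37 and 2.74 CPM at P3, P7, P9 and P16. The last value was 33.8% of the first. Such an order from P3 down to P16 was seen in 5.72% of all tested genes, and in none of the other 6 tested here. The slope in progenitors alone, fitted after the values had been seen, was -0.67 (SE 0.19, adjusted p = 0.391 by edgeR). Markers of dividing and early cells were also lower at later ages, with Top2a, a topoisomerase of dividing cells, at 51.3% of its P3 level at P16, Mki67 at 66.7% and Neurog1 at 45.2%. Their part in the values of Dcc was not tested. Robo3, the other gene found mainly in progenitors, was at 97.9% of its P3 level at P16, and Robo2 at 111%.

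In mature neurons 6 of the 7 tested genes had their highest CPM at P7, where 26.4% of all tested genes did (34.4% had it at P2 and 39.2% at P16). In TPM it was 7 of 7, beside 35.3% of all tested genes, so the pattern and its background depend on the unit. For Robo3 (5, 9 and 5 counts at P2, P7 and P16) and Dcc (8, 14 and 4 counts) the order rests on few reads. With 1 library at each age this order has no test.

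**Figure D4:**
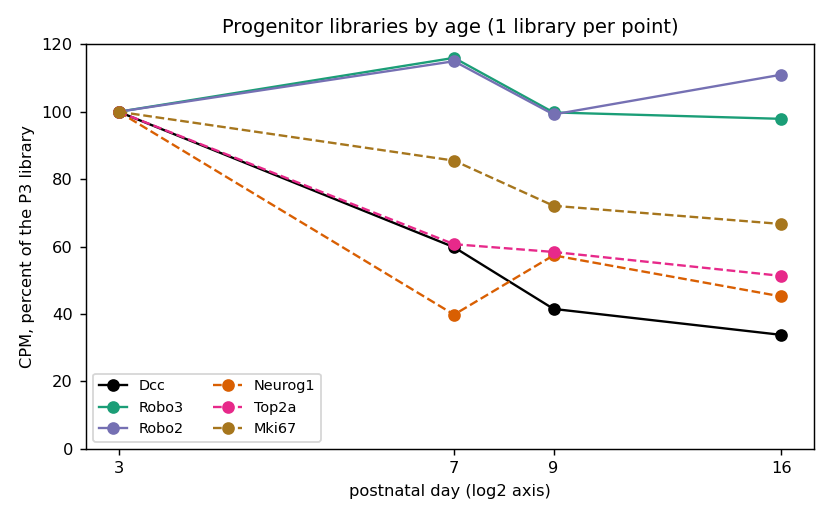
CPM in the 4 progenitor libraries as percent of the P3 library (vertical axis from 0) against postnatal day on a log2 axis, for Dcc, Robo3 and Robo2 (solid lines) and the markers Neurog1, Top2a and Mki67 (dashed lines). Dcc reaches 33.8% at P16, while Robo3 and Robo2 stay between 97.9% and 116%.

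Ordered by level in mature neurons, Robo2 (95.2 ± 8.55 TPM) came before Unc5b (60.2 ± 4.65 TPM), Slit1 (29.0 ± 3.68 TPM), Robo1 (25.3 ± 4.44 TPM) and Slit2 (6.09 ± 0.394 TPM; SD, n = 3 for each). Slit1 and Robo1 overlapped over the 3 libraries, and the other neighbours in this row did not. Robo3 (0.137 ± 0.0551 TPM), Dcc, Unc5c and Unc5a followed, each overlapping the next. In progenitors the order was Robo2 (149 ± 14.8 TPM), Unc5b (26.3 ± 2.97 TPM), Robo1 (25.1 ± 1.11 TPM), Slit1 (22.2 ± 1.71 TPM) and Slit2 (8.84 ± 1.20 TPM; SD, n = 4 for each). Unc5b and Robo1 overlapped there. Robo3 (2.70 ± 0.47 TPM) and Dcc (1.51 ± 0.749 TPM) came next and overlapped, above Unc5c and Unc5a.

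For each called gene, the 2 genes with the most similar profile were taken, by the root mean square difference of log2 CPM over the 7 libraries after centring each gene, among 12851 genes with a mean of at least 1 CPM over the libraries. Some passed this minimum only through the group where they are high, as Rpp25 (0.099 CPM in mature neurons) and Grm4 (0.113 CPM) did. Robo2 was closest to Hdlbp (0.03) and Frs2 (0.04), Slit1 to Dock9 and Diras1 (0.06 each), and Slit2 to Med22 (0.05) and Cyfip2 (0.06). Unc5b was closest to Ttc21a (0.06) and Bend4 (0.07). Robo3 was closest to Rpp25 (0.13) and Gpc2 (0.20), and Dcc to Grm4 (0.29) and Bfsp2 (0.31). The distances of the weakly counted Robo3 and Dcc were the largest.

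Robo2 is known to be graded across zones of the olfactory epithelium, so genes of these zones were read beside it. Nqo1, an enzyme of the dorsal zone, stood at 1153, 996 and 525 CPM in the mature pools at P2, P7 and P16, while Robo2 stood at 225, 268 and 227 CPM there. Nqo1 was called higher in mature neurons (log2 fold 1.28, SE 0.26, adjusted p = 0.00285 by edgeR), and so was Acsm4, another gene of the dorsal zone (1.14, SE 0.29, adjusted p = 0.00884 by edgeR). Ncam2, an adhesion molecule of the ventral zone, was at 140 to 186 CPM in mature neurons and 117 to 191 CPM in progenitors, and was not called (-0.05). Nrp2, the semaphorin receptor that sorts axons in the same dorsal to ventral direction, was lower in mature neurons with a log2 fold of -0.90 (SE 0.13, adjusted p = 0.000524 by edgeR). Its partner ligand Sema3f was not called (-0.32, SE 0.15, edgeR adjusted p = 0.0967). The part of the zones in the values of Robo2 was not tested.

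The other ligands of the 2 pathways were mostly lower in mature neurons. Of 10 listed, 9 had a row and 8 were tested, of which 6 fell and 0 rose, their median log2 fold being -1.54. Over all tested genes 30.0% were called lower and 28.8% higher. Draxin, a secreted protein that binds netrin and Dcc, had a log2 fold of -3.34 (SE 0.16, adjusted p = 5.68e-06 by edgeR), with 36.2 ± 3.56 CPM in progenitors (n = 4, SD) and 3.58 ± 0.695 CPM in the mature pools (n = 3, SD). Rgmb, a ligand of the Dcc relative neogenin, had one of -1.74 (SE 0.09) and Ntn4, a netrin, one of -1.62 (SE 0.19). Ntn1, the classical ligand of Dcc and Unc5b, was at 23.4 ± 8.87 CPM in mature neurons (n = 3, SD), against 20.7 ± 7.32 CPM in progenitors (n = 4, SD) and was not called (log2 fold 0.18, SE 0.35, edgeR adjusted p = 0.686).

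Among 17 tested of 19 other receptors and coreceptors, 6 rose and 3 fell, their median log2 fold being 0.19. The 9 called of 17 are near the 58.8% called over all tested genes. On log2(TPM + 1) by limma 2 rose and 4 fell, a setting that changes the test and the quantity at once. Sdc2 and Sdc3, heparan sulfate proteoglycans, had log2 folds of 1.37 (SE 0.10) and 0.54 (SE 0.11), and Hs2st1, an enzyme that sulfates such chains, had one of 0.37 (SE 0.07), whose call was lost on log2(TPM + 1) (0.14, limma adjusted p = 0.326, ranging from 2.66e-05 to 0.326 over its alternatives). Flrt2, a ligand and partner of Unc5 receptors, had one of -2.59 (SE 0.26), Ndst1, another heparan sulfate enzyme, one of -1.47 (SE 0.16), and Dscaml1, an adhesion molecule related to the netrin receptor Dscam, one of -1.38 (SE 0.23). Robo4, the Roundabout receptor of blood vessels, was below the filter at 2 to 18 counts per library.

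Of 36 intracellular effectors, 10 rose and 15 fell, their median log2 fold being -0.15 (7 and 17 by limma on log2(TPM + 1)). By edgeR 28.8% of all tested genes were called higher and 30.0% lower. The share that rose was near that background. Fyn and Src, tyrosine kinases downstream of Dcc, had log2 folds of -1.80 (SE 0.13) and -1.09 (SE 0.08), and Enah, an actin regulator that binds Robo receptors, had one of -0.94 (SE 0.07). Among those that rose were Dapk1, a kinase that binds the death domain of Unc5b, at 1.57 (SE 0.10), Srgap2, a GTPase-activating protein of the Slit and Robo pathway, at 1.11 (SE 0.10) and Pak3, a kinase activated by Rac and Cdc42, at 1.05 (SE 0.09).

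**Figure D5:**
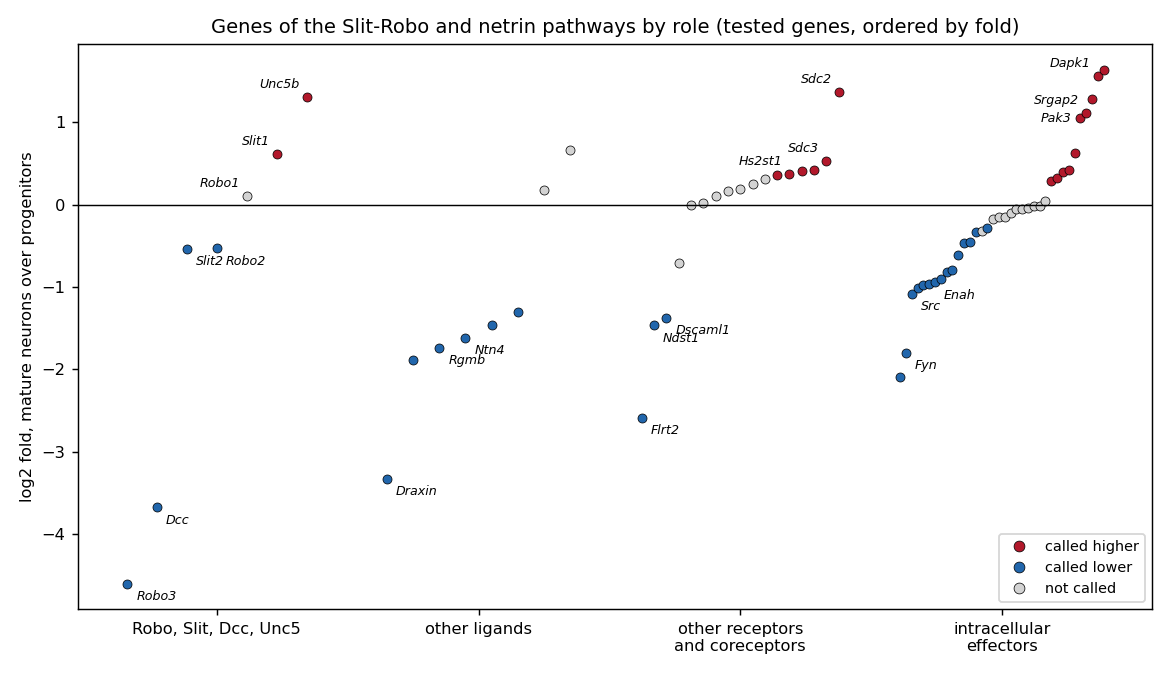
Log2 fold, mature neurons over progenitors, for the tested genes of 4 groups (the 7 genes described above, 8 other ligands, 17 other receptors and coreceptors and 36 intracellular effectors), each group ordered by fold and coloured by call. The called ligands of the second group all lie below 0, while the receptors and effectors hold calls on both sides.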

How the data were processed

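Libraries were made from polyadenylated RNA of sorted cells with a stranded kit, per the labels' protocols. Tools listed in the submitters' processing notes are bcl2fastq 2.18, STAR 2.6.1c and RSEM, with the build mm10. The sources used here give neither annotation release nor strand setting. The authors deposited whole-number read counts per gene and TPM values, scaled for transcript length. Entries that name no gene, 4 in the count table, held together 23.53% to 27.22% of each library and were left out.

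The members and lists were chosen with earlier results of these data known. The main test was edgeR 4.0.16 in R 4.3.3 (quasi-likelihood, TMM scaling, filterByExpr, Benjamini-Hochberg over all tested genes), checked on simulated counts. CPM use TMM-scaled library sizes, standard errors come from the fold and its F statistic, and p-values measure the spread between libraries of different age, for which the labels name no separate animals. Alternatives were DESeq2 1.42.0, limma 3.58.1 on log2(TPM + 1) and log2(TPM + 0.1), other scaling and filtering, each library left out, and an age block. Named genes were the 9, the 2 closest profiles of each called one, and up to 3 called genes with the smallest p per direction and list. Zone genes and cell markers were named beside a member, and Ntn1 and Robo4 were chosen after their values were seen. Gene positions are from GENCODE M21 and promoters from RefSeq.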

Additional observations from a re-analysis of the deposited data

Results flagged for a closer look

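Robo3 in the P7 progenitor library stood at 7.50 CPM, apart from the other 3 progenitor libraries at 6.31 to 6.45 CPM. Its gap to the nearest library was 0.884 of the range, above Dixon's 95% critical value for 4 libraries. The counts were 193 in that library and 168 to 174 in the others. In TPM the same library (3.39, against 2.40 to 2.59 in the others) was not flagged. The comparison was made for 18 sets of progenitor values (9 genes in CPM and in TPM), and chance flags about 1 in 20 of such sets.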

How the results depend on the processing

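The 6 genes called between the populations kept direction and call under each of the 13 alternatives, with log2 folds from -0.64 to -0.48 for Robo2, -4.94 to -1.70 for Robo3, 0.37 to 0.80 for Slit1, -0.65 to -0.41 for Slit2, -4.20 to -1.12 for Dcc and 1.17 to 1.49 for Unc5b. Among the 9, the count called for the age slope ranged from 0 to 1 when each library was left out, with Dcc called without the P7 mature neuron library. On log2(TPM + 0.1) the median of all genes moved from 0.01 to -0.12, and the share of called genes that were higher in mature neurons moved from 49.0% to 38.9%. Over all genes the age slope called 0 by the main test, 1500 by DESeq2, 770 without the low-count filter, 986 without the P7 mature neuron library and 1124 with postnatal day in place of its log2. The difference of slopes called 0, against 6 by DESeq2, 1 without the P2 mature neuron library and 2 without the P16 progenitor library. The libraries share ages only at P7 and P16. With these 4 libraries and age as a replicate block, 6 of the 9 guidance genes were called again, 2 higher and 4 lower, along with 6 other ligands, 11 other receptors and 25 effectors. The changes from P7 to P16 in the 2 populations correlated at 0.435 over genes, but the lines differ and nothing in the labels pairs the samples. At this depth, differences of Unc5a and Unc5c were not detectable.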

Other observations

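Nell2, which is known as a ligand of Robo3, was chosen here for that tie after its values were seen. Its mean was 20.4 ± 4.46 CPM in progenitors (n = 4, SD) against 7.39 ± 2.19 in mature neurons (n = 3, SD). The log2 fold was -1.46 (SE 0.24, adjusted p = 0.00107 by edgeR).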
